A study of Mus musculus with 12 samples.

Results

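The 10 genes described here encode the factors of translation elongation and other classic non-ribosomal members of the TOP mRNA class. They are the subunits of elongation factor 1 (Eef1a1, Eef1b2, Eef1d and Eef1g), elongation factor 2 (Eef2), the poly(A) binding protein Pabpc1, the ribosome-bound scaffold Rack1 (formerly Gnb2l1), the nascent chain factor Naca, and Tpt1 and Npm1. Each was chosen by name and then by whether the supplemental lists of the study pair that name with a transcript of the deposited table. All 10 candidates were paired, 10 of 20561 transcripts, so none had to be left out. The pairing rests on those lists. 9 of the 10 names were found through the study's list of transcripts with raised translation efficiency (TE, footprints per RNA), and Pabpc1 was found only through the table of 5′ UTRs, of whose 1631 readable transcripts 1226 are in that same list. The genes were therefore selected on the comparison of genotypes itself. Their changes are given below as a description with standard errors and without p values.

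RNA-seq and Ribo-seq libraries were made from Eμ-Myc/+ lymphomas, in which an immunoglobulin heavy chain enhancer drives Myc in B cells, and from Eμ-Myc/+ Prps2null lymphomas, which carry the same transgene and lack Prps2, an enzyme that makes the sugar phosphate used for nucleotide synthesis. Every group therefore carried the transgene, and no library came from normal B cells. Cells from frozen lymphoma stocks were injected into the tail vein of male C57BL/6 mice aged 8 weeks, nothing was given as treatment, and B cells were taken from lymph nodes with a bead-based kit that removes other cells. There were 3 lymphomas per genotype, each read by RNA-seq and by Ribo-seq, in 12 libraries, and values of 3 libraries are listed in the order of replicates 1, 2 and 3. The labels call them biological replicates and do not say whether they stem from separate primary tumors, so the errors measure the spread between these samples, which may be smaller than that between independent tumors. In these bulk samples fewer cells of a type and less RNA per cell cannot be told apart.

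Elongation factor 1A, encoded by Eef1a1, brings each aminoacyl-tRNA to the ribosome as a complex with GTP. The subunits encoded by Eef1b2, Eef1d and Eef1g form eEF1B, which recharges it with GTP. Elongation factor 2 then moves the ribosome on by 1 codon. Their mRNAs, like those of ribosomal proteins, belong to the class with a 5′ terminal oligopyrimidine (TOP) tract, a C at the cap followed by an unbroken run of C and T (U in the RNA), through which mTORC1 and the cap-binding protein LARP1 set how many of the transcripts are translated. A TOP mRNA can be held in cells in a little translated state, so its RNA level and its footprint level need not move together.

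The 5′ ends show which of these transcripts carry the tract in the annotated isoform, and they are printed because that sequence defines the class. In the study's table of 5′ UTRs, 2 of the 5 genes with an entry start with a C followed by 4 to 15 pyrimidines, against 3.43% of the 1631 readable entries of that table. The first 30 bases follow, 5′ to 3′, with the earliest run of a C and at least 4 pyrimidines in capitals.
Pabpc1 (ENSMUST00000001809): CCCCTTCTCCCCggcggttagtgctgagag
Rack1 (ENSMUST00000020640): CTTTTTCTCCacagggtcgtggtggcagcc
Eef2 (ENSMUST00000047864): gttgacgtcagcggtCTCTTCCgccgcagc
Eef1d (ENSMUST00000089681): gttttccgggagctgcgcgggcgCCCTCCC
Eef1g (ENSMUST00000052248): tttccaactcagcggggctgtagacggaac
Pabpc1 and Rack1 open on the tract. In Eef2 the run starts at base 16 and in Eef1d at base 24, and Eef1g has none in this window. A run that may start anywhere in the first 30 bases was found in 4 of these 5 genes, and in 39.1% of all entries, so that looser rule separates them little. These letters belong to the isoform that stood for each gene, and other start sites were not analysed here.

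For the genes without a 5′ UTR in that table, the bases that follow the RefSeq start site (GRCm38.p6) were read on the coding strand. A start site was at hand for 6 of the 10 genes, among them Eef2 and Rack1, whose RefSeq starts give the same 30 bases as above. Only Rack1 of these 6 met the strict rule, against 2.51% of 32851 RefSeq starts, and Rack1 and Eef2 met the looser rule (37.0% of all starts). Eef1a1 and Tpt1, both textbook TOP mRNAs, are shown because their annotated starts carry no tract.
Eef1a1 (chr9:78481695-78481724, minus strand): ttcccgagggtgggggagaacggtatataa
Tpt1 (chr14:75845256-75845285, plus strand): agttccgggggagccgcggacggtgacgta
Neither window holds a C followed by 4 pyrimidines, and neither do those of Naca and Eef1b2. An annotated start need not be the base at which the mRNA is capped, which was not measured here. These windows therefore do not show that the mRNAs lack the tract. In GRCm38.p6 the RefSeq genes lie at chr9:78478453-78481724 (Eef1a1), chr1:63176831-63180486 (Eef1b2), chr15:75894796-75909784 (Eef1d), chr19:8967041-8978180 (Eef1g), chr10:81176631-81182509 (Eef2), chr15:36595658-36609581 (Pabpc1), chr11:48800360-48806241 (Rack1), chr10:128035346-128048637 (Naca), chr14:75845256-75848303 (Tpt1) and chr11:33152498-33164142 (Npm1).

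Totals ran from 4135908 to 6648829 counts in the RNA-seq libraries and from 975201 to 2793163 in the Ribo-seq libraries, and the least counted of the 10 genes, Eef1d, still had 245 to 1069 counts in RNA-seq and 267 to 714 in Ribo-seq. Prps2 itself stood at 56.5 to 60.9 CPM (counts scaled to the total of the library) in the RNA-seq libraries of Eμ-Myc/+ lymphomas and at 8.53 to 10.9 in those of Eμ-Myc/+ Prps2null lymphomas. In Ribo-seq, 2 libraries went against their labels. The library labelled Eμ-Myc/+ replicate 3 had 8.18 CPM of Prps2 footprints, where its group mates had 162.5 and 129.1, and the library labelled Eμ-Myc/+ Prps2null replicate 2 had 139.7, where its group mates had 5.11 and 9.65. Footprints of Ms4a1, a B cell surface marker, parted the same libraries (207 against 38.3 and 23.2 CPM, and 22.0 against 227 and 221). Ribo-seq and TE values below follow the labels, and the summaries of each Ribo-seq and TE result are given also without these 2 libraries. Of the B cell markers, Cd79a and Ms4a1 were named (2 of 6) and had counts in all libraries, with a summed RNA level of 377 to 482 CPM in Eμ-Myc/+ and 168 to 359 CPM in Eμ-Myc/+ Prps2null lymphomas. The 2 markers went opposite ways in RNA. Cd79a stood at 369 to 474 CPM in Eμ-Myc/+ and at 117 to 264 CPM in Eμ-Myc/+ Prps2null lymphomas, and Ms4a1 at 5.87 to 7.90 and at 50.3 to 94.6 CPM. The 3 named of 4 stromal markers summed to 46.8 to 106.9 CPM in RNA-seq of Eμ-Myc/+ and to 11.8 to 24.4 CPM in that of Eμ-Myc/+ Prps2null lymphomas, the 3 named of 5 myeloid markers to 20.5 to 41.1 and 15.5 to 31.9 CPM. In Ribo-seq the sums were 605 to 768 and 650.3 to 716 CPM for B cells, 70.8 to 229 and 41.8 to 557 for stroma, and 57.8 to 134 and 88.3 to 201 for myeloid cells. None of these named markers was at 0 in any library, and no T cell or red cell marker had a name. The part of these differences in the results below was not tested.

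RNA of all 10 genes was lower in Eμ-Myc/+ Prps2null lymphomas, from 5.23-fold lower for Eef2 to 1.80-fold lower for Pabpc1. In CPM every Eμ-Myc/+ Prps2null library lay below every Eμ-Myc/+ library for each of them, which held for 24.0% of the 8996 transcripts with a mean of at least 10 CPM. All 10 passed an adjusted p of 0.05 in the lower direction (edgeR's quasi-likelihood test), as did 18.5% of the 14682 transcripts tested, and since these genes were chosen on this comparison nothing is read from either count. Their median log2 fold change was -1.85, beside 0.08 for all transcripts tested and -2.16 for the 83 named ribosomal protein transcripts. All 83 of these are in the list of raised TE. They were thus selected on the same comparison, and here and below they are not an independent reference. The share of a library's RNA counts that the 10 genes took was 3.85%, 3.40% and 3.60% in Eμ-Myc/+ lymphomas, as against 0.960%, 1.31% and 1.54% where Prps2 was missing. Scaling matters for the size of the change and not for its sign. With library totals in place of median of ratios the median of all transcripts rose to 0.37, the transcripts called moved from 2163 higher and 2712 lower to 3851 higher and 1668 lower, and the median of the 10 genes became -1.56, which is -1.93 relative to all transcripts and -1.94 in the scaling used.

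**Figure D1:**
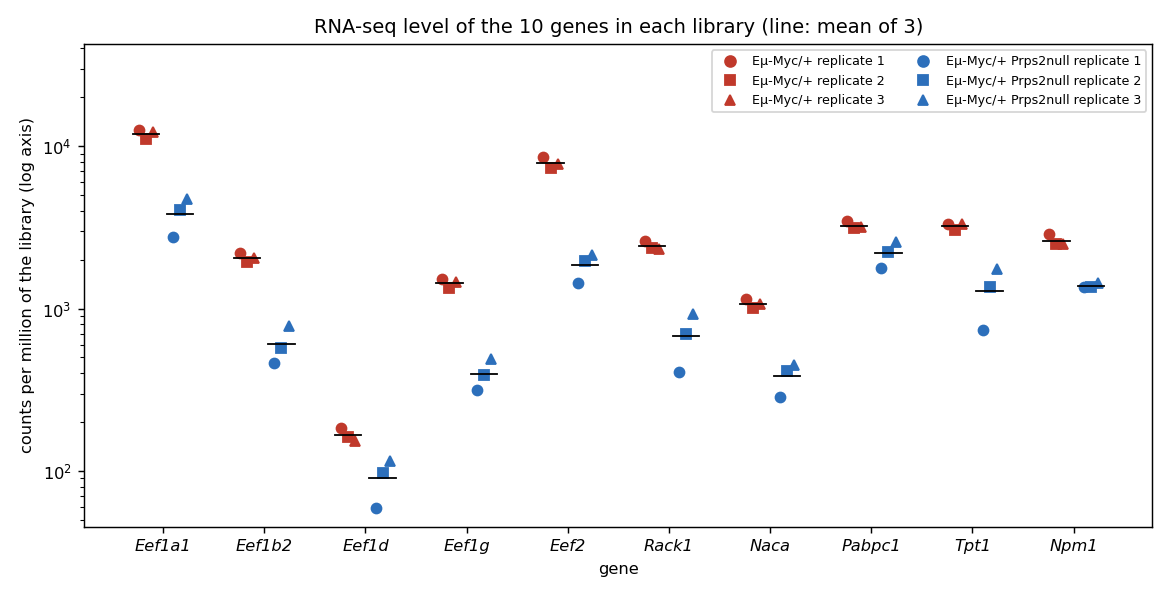
RNA-seq level of each gene in CPM (log axis), 1 point per library, with the mean of the 3 libraries of a genotype as a line. Red points (Eμ-Myc/+) stand above blue points (Eμ-Myc/+ Prps2null) for all 10 genes, with the widest gap for Eef2 and the narrowest for Pabpc1, and Eμ-Myc/+ Prps2null replicate 1 is the lowest library for 9 of the 10.

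RNA of each elongation factor 1 subunit was lower in Eμ-Myc/+ Prps2null lymphomas, by unequal amounts. Eef1a1 stood at 12545, 11140 and 12202 CPM in Eμ-Myc/+ lymphomas, against 2746, 4054 and 4749 CPM in Eμ-Myc/+ Prps2null lymphomas, a log2 fold change of -1.93 (SE 0.30). It was the third most counted transcript in every Eμ-Myc/+ library and ranked 19th, 6th and 6th in the Eμ-Myc/+ Prps2null libraries. Eef1b2, the catalytic subunit that exchanges GDP for GTP, stood at 2199, 1942 and 2051 CPM against 459, 574 and 777, a log2 fold change of -2.06 (SE 0.25). Eef1g, the scaffold of eEF1B, stood at 1527, 1344 and 1450.5 CPM against 316, 389 and 489.6, a log2 fold change of -2.14 (SE 0.24). For these 3 subunits the lowest Eμ-Myc/+ library was 2.35 to 2.74 times the highest Eμ-Myc/+ Prps2null library. Eef1d, which carries a further exchange activity, was the exception, at 185, 161 and 152 CPM against 59.2, 97.5 and 115, with a log2 fold change of -1.16 (SE 0.22). Its lowest Eμ-Myc/+ library was only 1.32 times its highest Eμ-Myc/+ Prps2null library.

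Eef2, the translocation factor, had the largest RNA change of the 10 genes. It stood at 8634, 7391 and 7787 CPM in Eμ-Myc/+ lymphomas and at 1444, 1968 and 2147 CPM in Eμ-Myc/+ Prps2null lymphomas, and its log2 fold change was -2.39 (SE 0.28). The lowest Eμ-Myc/+ library was 3.44 times the highest Eμ-Myc/+ Prps2null library, and 1.08% of the transcripts tested had a log2 fold change below that of Eef2.

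Among the genes that work at the ribosome or on the growing chain, Rack1, a scaffold on the small subunit, stood at 2613, 2348 and 2345 CPM in Eμ-Myc/+ and at 408, 699 and 933 CPM in Eμ-Myc/+ Prps2null lymphomas (log2 fold change -2.13, SE 0.29). The Eμ-Myc/+ libraries lay within 1.11-fold of each other and the Eμ-Myc/+ Prps2null libraries spread 2.28-fold, with replicate 1 lowest. Naca, the alpha subunit of the complex that shields nascent chains as they leave the ribosome, stood at 1142, 1009 and 1072 CPM against 287, 413 and 451 (log2 fold change -1.78, SE 0.23). Both genes thus fell in every Eμ-Myc/+ Prps2null library, Rack1 with the wider spread. Reads of Eef1a1, Rack1, Naca, Tpt1, Npm1 and Pabpc1 can match near-identical copies elsewhere in the genome, and how such reads were assigned is not given in the sources used here, so their levels are less certain than their number of reads makes them look.

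Of the remaining genes, Tpt1, which encodes a small protein tied to growth and cell survival, stood at 3304, 3041 and 3312 CPM in Eμ-Myc/+ and at 735, 1351 and 1748 CPM in Eμ-Myc/+ Prps2null lymphomas, a log2 fold change of -1.63 (SE 0.29) with a spread of 2.38-fold among the latter. Npm1, the nucleolar chaperone of ribosome assembly, stood at 2868, 2487 and 2496 CPM against 1367, 1355 and 1439.5, a log2 fold change of -1.20 (SE 0.23). Unlike the others, it was almost level across the Eμ-Myc/+ Prps2null libraries, which lay within 1.06-fold of each other. Pabpc1, which binds the poly(A) tail and bridges it to the initiation factors at the cap, stood at 3457, 3128 and 3162 CPM against 1779.5, 2242 and 2578, a log2 fold change of -0.85 (SE 0.25). It was the smallest change of the 10, and in the alternatives tried only Pabpc1 left the set of called genes, namely with library totals, when replicate number entered as a block, and when replicate 1 or 3 of Eμ-Myc/+ or replicate 2 of Eμ-Myc/+ Prps2null was left out.

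Because a ratio of 2 transcripts within a library does not depend on scaling, the balance between the genes was read the same way in both assays. In RNA, Pabpc1 counts were 0.400, 0.423 and 0.406 of Eef2 counts in Eμ-Myc/+ lymphomas, against 1.23, 1.14 and 1.20 in Eμ-Myc/+ Prps2null lymphomas. In footprints the same ratio was 0.487, 0.513 and 0.601 against 0.575, 0.424 and 0.498. The RNA balance between poly(A) binding protein and elongation factor 2 thus differed in every library between genotypes, while the footprint balance overlapped. The ratio of Npm1 to Eef2 behaved alike, at 0.332, 0.337 and 0.320 against 0.947, 0.688 and 0.670 in RNA and at 0.576, 0.553 and 0.582 against 0.612, 0.521 and 0.513 in footprints. Within eEF1B, the ratio of Eef1d to Eef1b2 in RNA was 0.0840, 0.0828 and 0.0743 against 0.129, 0.170 and 0.148, and in footprints 0.723, 0.725 and 0.811 against 0.895, 0.711 and 0.810. The ratio of the scaffold to the catalytic subunit moved much less, though the genotypes did not overlap in RNA here either. Eef1g counts were 0.694, 0.692 and 0.707 of Eef1b2 counts in Eμ-Myc/+ RNA and 0.688, 0.678 and 0.630 in Eμ-Myc/+ Prps2null RNA, and 1.51 to 1.79 and 1.60 to 1.73 of them in footprints. The ratio of Eef1a1 to Eef2 was 1.45, 1.51 and 1.57 in Eμ-Myc/+ RNA and 1.90, 2.06 and 2.21 in Eμ-Myc/+ Prps2null RNA, and lay between 0.988 and 1.14 in all 6 Ribo-seq libraries. These ratios were computed after the genes were chosen and have no test. With the 2 Ribo-seq libraries that went against their labels left out, the footprint ratios still overlapped for these pairs except Eef1d to Eef1b2, which was then higher in Eμ-Myc/+ Prps2null lymphomas (0.895 and 0.810 against 0.723 and 0.725).

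**Figure D2:**
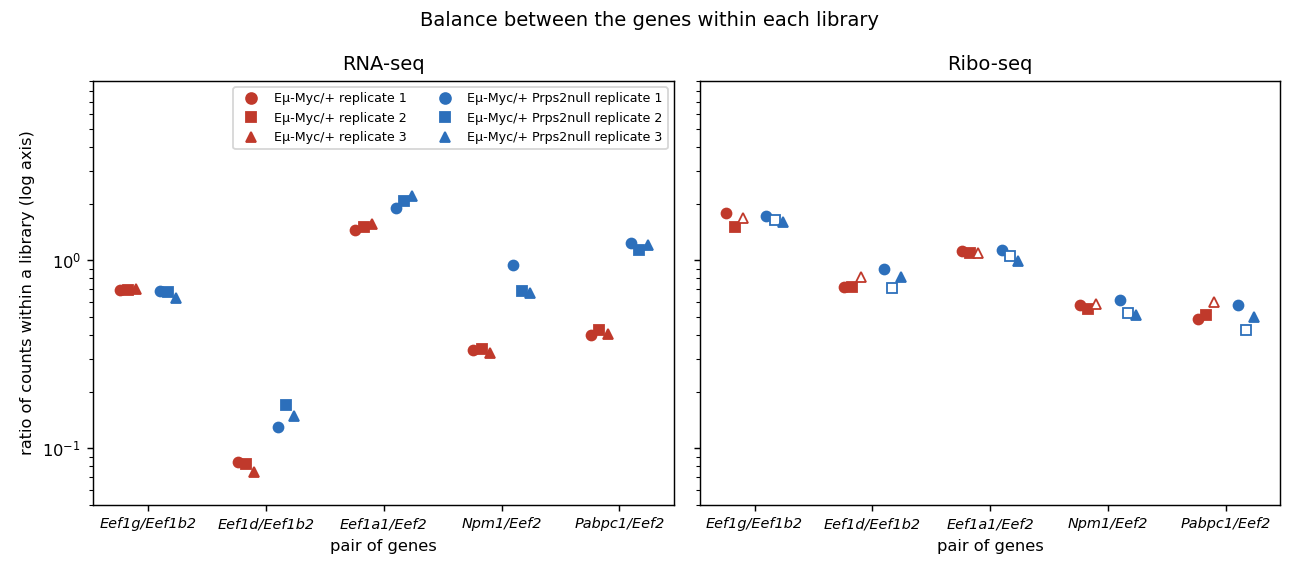
Ratio of the counts of 2 genes within each library (log axis), RNA-seq on the left and Ribo-seq on the right, 1 point per library, with the Ribo-seq libraries whose Prps2 footprints went against their labels drawn open. In RNA the ratios of Eef1d to Eef1b2 and of Eef1a1, Npm1 and Pabpc1 to Eef2 are higher in every Eμ-Myc/+ Prps2null library than in any Eμ-Myc/+ library, and in Ribo-seq the genotypes overlap for each of the 5 pairs as long as the open points are counted.

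Footprints of the same genes were close between the genotypes. By the labels, the log2 fold changes of the 10 genes in Ribo-seq lay between -0.12 (Pabpc1) and 0.04 (Eef1d) with a median of -0.06, beside 0.00 for all transcripts tested and -0.10 for ribosomal protein transcripts. Standard errors of 0.16 to 0.23 exceeded each of these changes. The genotypes overlapped for all 10 genes, where 2.93% of the 8522 transcripts with a mean of at least 10 CPM were lower without overlap. None of the 10 was called, and 0 of 9031 transcripts were (0.00%, edgeR's quasi-likelihood test, with 47 at an unadjusted p under 0.05 and 0 called by DESeq2). The 10 genes took 0.865%, 0.916% and 0.622% of the Ribo-seq counts in the libraries labelled Eμ-Myc/+ and 0.743%, 0.835% and 0.726% in those labelled Eμ-Myc/+ Prps2null.

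The sign of the footprint change depends on single libraries. Without the library labelled Eμ-Myc/+ replicate 3 all 10 genes were lower in Eμ-Myc/+ Prps2null lymphomas (median -0.21), and without Eμ-Myc/+ replicate 2 all 10 were higher (median 0.07). The library labelled Eμ-Myc/+ replicate 3 was the deepest of the Ribo-seq libraries and had the lowest CPM for all 10 genes, while Eμ-Myc/+ replicate 2 had the highest for 9. With both libraries that went against their labels left out, all 10 genes were lower, with a median of -0.25 beside 0.02 for all transcripts and -0.39 for ribosomal protein transcripts. In that fit 4 of the 10, Naca (-0.42, SE 0.12), Eef1a1 (-0.40, SE 0.09), Npm1 (-0.35, SE 0.10) and Eef2 (-0.34, SE 0.10), were called lower, where 17.9% of 9048 transcripts were. Eef1d had the smallest value there, at -0.01 (SE 0.13).

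**Figure D3:**
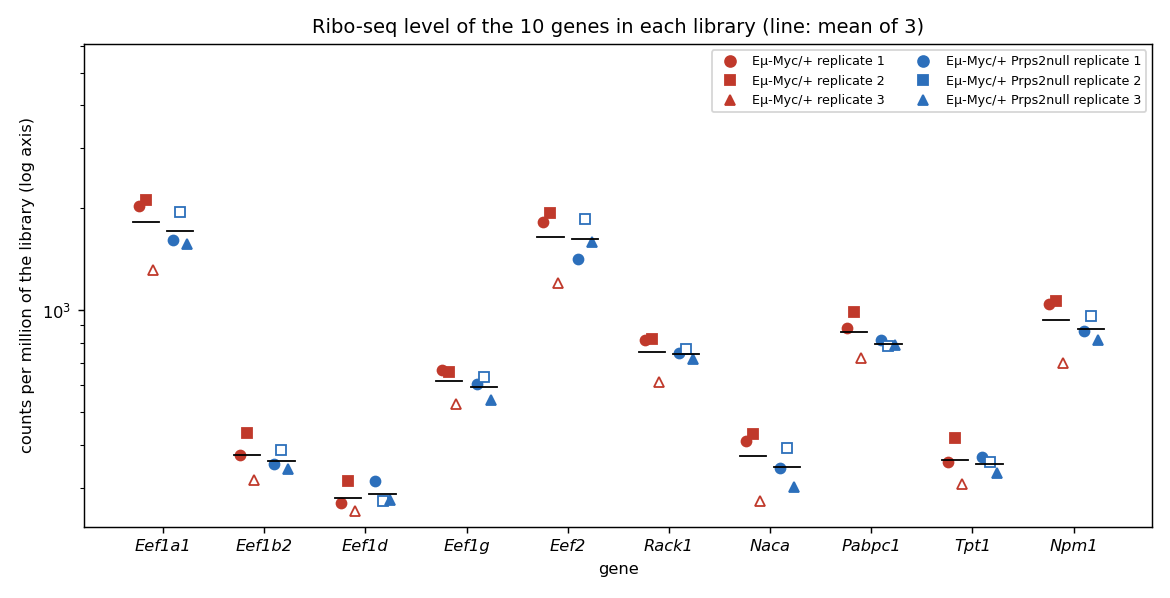
Ribo-seq level of each gene in CPM (log axis), 1 point per library with the mean of 3 as a line, and with the 2 libraries whose Prps2 footprints went against their labels drawn open. The genotypes overlap for all 10 genes, and the open triangle, the library labelled Eμ-Myc/+ replicate 3, is the lowest point for each.

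Among elongation factors, Eef1a1 had 2018, 2101 and 1309.5 CPM of footprints in the libraries labelled Eμ-Myc/+ and 1609.6, 1947 and 1566 CPM in those labelled Eμ-Myc/+ Prps2null. Eef2 had 1812, 1924 and 1199.5 CPM against 1415, 1848 and 1586. In both genes the library labelled Eμ-Myc/+ Prps2null replicate 2 stood nearest to Eμ-Myc/+ replicates 1 and 2, and the library labelled Eμ-Myc/+ replicate 3 stood below every other. Eef1b2 had 373, 434 and 315 CPM against 351, 386 and 339.8. Eef1g had 667, 656 and 528 CPM against 605, 633 and 545. Eef1d had 269.9, 315 and 255 CPM against 314, 274 and 275, so that its footprints ran within 1.23-fold in Eμ-Myc/+ and within 1.14-fold in Eμ-Myc/+ Prps2null libraries.

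Rack1 had 814, 822 and 613 CPM of footprints in the libraries labelled Eμ-Myc/+ and 745, 765 and 718 in those labelled Eμ-Myc/+ Prps2null. Naca had 411, 433 and 275 CPM against 342, 391 and 300.3. Pabpc1 had 882, 987 and 721 CPM against 814, 783 and 789.7. As for each of the other genes, the Eμ-Myc/+ Prps2null values of Rack1 and Pabpc1 fell inside the range of the Eμ-Myc/+ values and were tighter, here within 1.07-fold and 1.04-fold. Tpt1 had 357, 421 and 307 CPM against 369, 358 and 330.3, and Npm1 had 1043, 1064 and 698 CPM against 867, 963 and 814.

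Footprints per RNA, the ratio on which 9 of the genes were picked, were higher for all 10 genes in Eμ-Myc/+ Prps2null lymphomas. By the interaction of genotype and assay, the log2 change of TE ran from 0.73 (Pabpc1) to 2.36 (Eef2) with a median of 1.75, beside 0.28 for all transcripts tested and 2.07 for ribosomal protein transcripts. Eef2 had a change of 2.36 (SE 0.32), Rack1 of 2.12 (SE 0.35), Eef1g of 2.09 (SE 0.27), Eef1b2 of 2.00 (SE 0.29) and Eef1a1 of 1.84 (SE 0.34). Naca followed at 1.66 (SE 0.31), Tpt1 at 1.59 (SE 0.36), Eef1d at 1.21 (SE 0.30), Npm1 at 1.11 (SE 0.28) and Pabpc1 at 0.73 (SE 0.26). The order is that of the RNA changes, except that Rack1 and Eef1g, and Eef1d and Npm1, trade places, and from Eef2 down to Tpt1 each neighbour differs by less than the standard error of either. Pabpc1, the gene outside the readable list of raised TE, has the smallest value, and Npm1 is the lowest of those in the list.

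In this fit 7 of the 10 genes, all but Eef1d, Npm1 and Pabpc1, were called higher, where 2.16% of 8987 transcripts were, and the list of raised TE chose 9 of the 10 on the same libraries. The count depends on single lymphomas. Leaving out a single lymphoma of the Eμ-Myc/+ group gave 0 (replicate 1), 0 (replicate 2) or 4 (replicate 3), and leaving out replicate 2 of Eμ-Myc/+ Prps2null gave 0. It was also 3 with library totals and 4 with the lymphoma as a block. Without the 2 Ribo-seq libraries it stayed at 7, where 3.14% of 9001 transcripts were called higher, and the log2 changes ran from 0.61 (Pabpc1) to 2.05 (Eef2) with a median of 1.49. In each of the alternatives tried the change of every one of the 10 genes kept its sign.

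**Figure D4:**
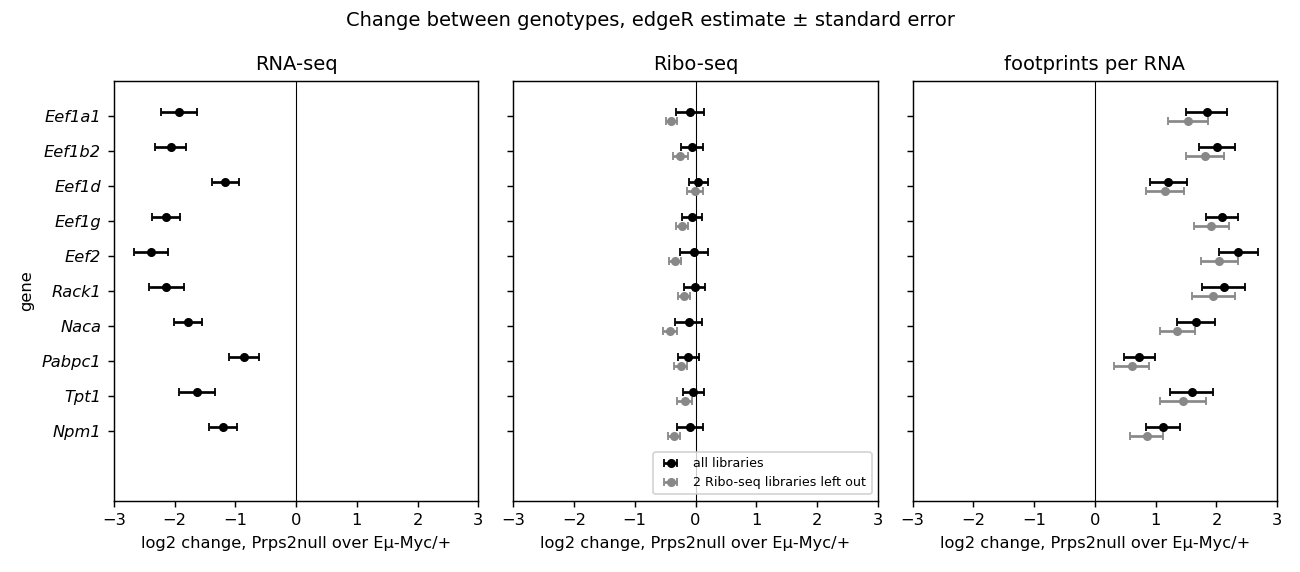
log2 change from Eμ-Myc/+ to Eμ-Myc/+ Prps2null lymphomas for each gene in RNA-seq, in Ribo-seq and in footprints per RNA, as edgeR estimates with bars of 1 standard error, from all libraries (black) and with the 2 Ribo-seq libraries left out (gray). RNA changes lie between -2.39 and -0.85, Ribo-seq changes between -0.12 and 0.04 (black) or -0.42 and -0.01 (gray), and changes of footprints per RNA between 0.73 and 2.36 (black) or 0.61 and 2.05 (gray).

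By labelled lymphoma, the log2 ratio of Ribo-seq CPM to RNA-seq CPM of Eef2 was -2.25, -1.94 and -2.70 in Eμ-Myc/+ lymphomas, against -0.03, -0.09 and -0.44 in Eμ-Myc/+ Prps2null lymphomas. For Rack1 it was -1.68, -1.51 and -1.94 against 0.87, 0.13 and -0.38, and for Tpt1 -3.21, -2.85 and -3.43 against -0.99, -1.92 and -2.40. The genotypes were apart in all 3 of these genes, with the widest spread in Eμ-Myc/+ Prps2null lymphomas for Rack1 and Tpt1, the genes with the widest RNA spread. For Pabpc1 it was -1.97, -1.66 and -2.13 against -1.13, -1.52 and -1.71, where Eμ-Myc/+ Prps2null replicate 3 lay below Eμ-Myc/+ replicate 2, so this gene alone overlapped, also without the lymphomas of the 2 doubtful Ribo-seq libraries. The other 9 genes were named through the list of raised TE, that is, on this ratio. The share of all transcripts without overlap in it was not computed, and nothing is read from the count. Eef1d was the only gene with more footprints than RNA, relative to the library totals, in every lymphoma, at 0.55, 0.97 and 0.75 against 2.41, 1.49 and 1.26.

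Within Eμ-Myc/+ lymphomas 9 of the 10 genes were among the transcripts with the fewest footprints per RNA, with Eef1g the highest of the 9 (6.05% of transcripts below it). The fitted log2 ratio of footprints to RNA was lowest for Tpt1, at -3.30 (SE 0.28), and 0.65% of the transcripts tested had a lower ratio. It was -2.86 for Eef1a1, -2.61 for Eef1b2, -2.41 for Eef2 and -2.05 for Pabpc1, each with under 3% of transcripts below. Eef1d was the exception at 0.61 (SE 0.21), with 47.3% of transcripts below it. Within Eμ-Myc/+ Prps2null lymphomas the ratios ran from -1.71 (Tpt1, SE 0.26) to 1.82 (Eef1d, SE 0.22), with 3.32% and 77.3% of transcripts below them, and the median of the 10 genes was -0.28, beside 0.96 for all transcripts and 0.06 for ribosomal protein transcripts. In Eμ-Myc/+ lymphomas the corresponding medians were -1.95, 0.68 and -2.12. Without the 2 Ribo-seq libraries the medians of the 10 genes, all transcripts and ribosomal protein transcripts were -1.82, 0.60 and -1.92 in Eμ-Myc/+ and -0.38, 0.92 and -0.03 in Eμ-Myc/+ Prps2null lymphomas. In that fit Tpt1 was again lowest in both genotypes, at -3.18 (SE 0.30) and -1.73 (SE 0.28), with 1.67% and 3.82% of transcripts below it, and Eef1d was again highest, at 0.69 (SE 0.22) and 1.84 (SE 0.22).

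**Figure D5:**
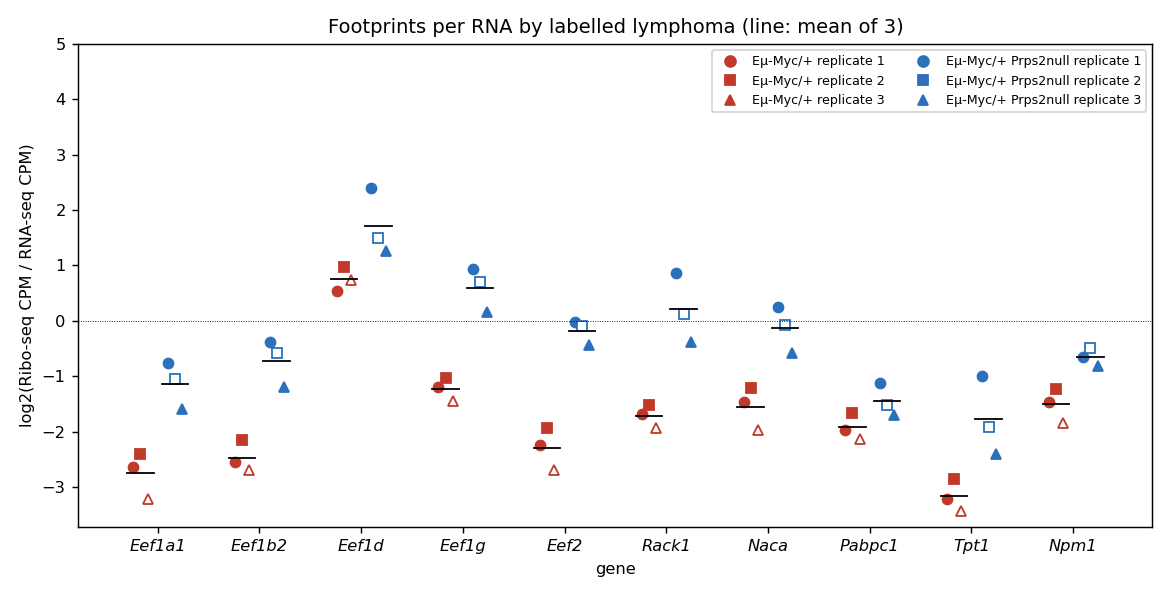
log2 ratio of Ribo-seq CPM to RNA-seq CPM for each gene and labelled lymphoma, with the mean of 3 as a line and with the lymphomas that contain the 2 Ribo-seq libraries drawn open. Blue points (Eμ-Myc/+ Prps2null) stand above red points (Eμ-Myc/+) for 9 of the 10 genes, those picked on this ratio, and overlap them for Pabpc1. Eef1d is the gene with all points above 0.

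The 10 genes were also set beside the ribosomal protein transcripts. Their summed RNA counts were 22.6% to 23.9% of the summed counts of the 83 ribosomal protein transcripts in Eμ-Myc/+ lymphomas and 36.3%, 28.3% and 26.1% in Eμ-Myc/+ Prps2null lymphomas, so ribosomal protein RNA was lower still. In Ribo-seq the figure was 22.4% to 24.7% in the libraries labelled Eμ-Myc/+ and 22.9% to 25.8% in those labelled Eμ-Myc/+ Prps2null (22.4% and 23.1% against 23.5% and 25.8% without the 2 libraries). When the 12 libraries of both assays were set against the mean pattern of the 10 genes (log2 CPM, each gene centred), the 5 nearest named transcripts were Rps27a (r = 0.997), Rpl19, Rpl35, Rps24 and Fau, all of which encode ribosomal proteins, and 43 of the 50 nearest of 7623 transcripts were of that kind. Only the 83 named ones, all in the list of raised TE, could be counted as such. Their share of the 7623 was not computed. Of the 10 genes, Eef1b2 (r = 0.991), Eef2 and Naca had the highest r, Pabpc1 (r = 0.862) and Eef1g (r = 0.851) lower ones, and Eef1d a negative one (r = -0.22, rank 2873). Each gene was centred over all 12 libraries, so r includes its difference in level between the assays and does not rank the changes between genotypes. Eef1d had a higher CPM in Ribo-seq than in RNA-seq in each labelled lymphoma. Its RNA was still lower in every Eμ-Myc/+ Prps2null library than in any Eμ-Myc/+ library. These correlations describe 12 points that fall into the 2 assays, share their library totals, and include each gene in its own mean, so they are given without a test.

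Other genes of translation were read from lists of names, of which only those paired with a transcript could be used, and most of those came through the list of raised TE, so their direction in RNA is not independent evidence. Of 42 initiation factors 19 were named, 16 of them through that list. All 19 were called lower in RNA (18.5% of all transcripts were), with a median log2 fold change of -1.09. The largest change was that of Eif3k, a subunit of the eIF3 scaffold (-2.27, SE 0.20), and the smallest that of Eif2s3y, a Y-linked gamma subunit of eIF2 (-0.63, SE 0.20). In Ribo-seq none was called, 10 lay above 0 and 9 below, and their median was 0.01. In TE 7 of the 19 were called higher, beside 2.16% of all transcripts, with Eif3k at 2.23 (SE 0.25) and Eif3f at 2.17 (SE 0.35) at the top, and without replicate 1 or 2 of Eμ-Myc/+ no transcript of the table was called in TE. Without the 2 Ribo-seq libraries 3 of the 19 were called higher and 3 lower in Ribo-seq (17.9% of all transcripts were called lower), and 10 were called higher in TE (3.14%), with Eif3k at 2.00 (SE 0.25). The lowest in Ribo-seq was Eif4a2 (-2.62, SE 0.15). Its TE change was then -0.41 (SE 0.31), below 0 and not called, against 1.06 (SE 0.85) by the labels.

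Of 15 other elongation and release factors 6 were named, 3 of them through the list of raised TE, and 5 were called lower in RNA (18.5% of all transcripts). Eef1akmt4, named for lysine methylation of eEF1A, was lowest (-2.03, SE 0.31), and Eef1akmt1, of the same family, had -0.66 (SE 0.43) and was not called. Eef2k, the kinase that inhibits eEF2 and was not in that list, fell by 1.23 (SE 0.17) on the log2 scale in RNA. Of the 6, 0 were called in Ribo-seq (edgeR, 0.00% of all transcripts) and 0 in TE, where their log2 changes ran from 0.55 to 1.61. Without the 2 Ribo-seq libraries 5 of the 6 were called lower in Ribo-seq (17.9% of all transcripts), with Eef2k at -1.52 (SE 0.19) and Eef1akmt4 at -1.18 (SE 0.30), and 0 in TE, where Eef2k changed sign to -0.29 (SE 0.26). Of 4 mitochondrial elongation factors, whose mRNAs are not of the TOP class, 3 were named. Tufm (-0.96, SE 0.20) and Gfm2 (-0.81, SE 0.25), both in the list of raised TE, were called lower in RNA (18.5% of all transcripts). Tsfm (-0.63, SE 0.27), which is not in that list, was not called.

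Partners of the 10 genes moved in the same direction in RNA. Btf3, the beta subunit that pairs with Naca, had a log2 fold change of -2.25 (SE 0.19) in RNA, -0.22 (SE 0.33) in Ribo-seq and 2.02 (SE 0.38) in TE, and it was called in RNA and TE. Without the 2 Ribo-seq libraries it had -0.72 (SE 0.12) in Ribo-seq and 1.52 (SE 0.24) in TE and was called in both. All 4 named of 10 nascent chain factors, each named through the list of raised TE, were called lower in RNA, beside 18.5% of all transcripts, the smallest being Srp54a (-0.66, SE 0.22), of the signal recognition particle. Of the poly(A) binding list 3 of 4 were named, all through the list of raised TE, and all 3 were called lower in RNA (18.5% of all transcripts). Paip2, an inhibitor of Pabpc1, had -1.77 (SE 0.24), Paip1, its coactivator, -1.54 (SE 0.21), and its paralog Pabpc4 -0.86 (SE 0.19), so that Pabpc4 stood close to the -0.85 of Pabpc1. By the labels none of the 3 was called in Ribo-seq or TE. Without the 2 Ribo-seq libraries Paip1 (-1.61, SE 0.22) and Paip2 (-1.29, SE 0.13) were called lower in Ribo-seq (17.9% of all transcripts). Their TE changes were then -0.08 (SE 0.32) and 0.48 (SE 0.32). Only Pabpc4 was called higher in TE there (1.11, SE 0.24, beside 3.14% of all transcripts). All 5 named of 12 nucleolar factors, 4 of them through that list, were called lower in RNA, where 18.5% of all transcripts were, from Nop53 (-1.68, SE 0.20) to Nop10 (-0.93, SE 0.31), with Npm3, a relative of Npm1, at -0.94 (SE 0.25). By the labels none of the 5 was called in Ribo-seq, and only Nop53 in TE (1.71, SE 0.21, beside 2.16% of all transcripts). Without the 2 Ribo-seq libraries Nop16 (-0.77, SE 0.15) and Nop10 (-0.62, SE 0.15) were called lower in Ribo-seq (17.9%). Nop53 was again the only call in TE (1.70, SE 0.25, beside 3.14%).

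Among regulators of TOP mRNAs, 5 of 11 were named, 4 of them through the list of raised TE, and 3 were called lower in RNA (18.5% of all transcripts), namely Eef2k, Eif4ebp2 (-0.94, SE 0.19), a repressor of the cap-binding protein eIF4E, and Rps6kb2 (-0.93, SE 0.22), an S6 kinase. Mtor, the kinase of mTORC1, had -0.24 (SE 0.22) in RNA and 0.50 (SE 0.25) in Ribo-seq (0.50, SE 0.20, without the 2 libraries) and was called in none of these fits. Eif4ebp3 had -0.76 (SE 0.33) in RNA, was not called, and was too low in Ribo-seq to be tested. By the labels none of the other 4 was called in Ribo-seq or TE. Without the 2 libraries Eef2k was called lower in Ribo-seq (17.9% of all transcripts). Rps6kb2 (2.45, SE 0.62) and Eif4ebp2 (1.07, SE 0.28) were then called higher in TE (3.14% of all transcripts). Footprints of Rps6kb2 changed by 1.51 (SE 0.61) in that fit and were not called.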

How the data were processed

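RNA-seq and Ribo-seq of 3 Eμ-Myc/+ and 3 Eμ-Myc/+ Prps2null lymphomas were analysed. The authors trimmed Ribo-seq reads (cutadapt 2.3), collapsed them by molecular identifier and removed rRNA and tRNA reads. The rest were aligned with Bowtie2 2.3.5 to 1 isoform per gene, that with the longest coding sequence (mm10 in the submitters' processing notes). Aligned footprints were then deduplicated. Of these steps, the paper names only the Bowtie2 alignment for RNA-seq, also against the longest coding sequence. What this difference between the assays does to footprints per RNA was not tested. For RNA-seq the authors deposited raw counts. For Ribo-seq the authors deposited expected counts, which need not be whole after their correction for stalling.

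Expected counts were rounded. The whole table was fitted with edgeR 4.0.16 in R 4.3.3 (median of ratios within each assay, filterByExpr, Benjamini-Hochberg over all transcripts tested, called below 0.05), with TE as the interaction of genotype and assay. Standard errors were derived from each log2 fold change and its F statistic. On simulated counts with 200 transcripts changed by a log2 of 2, 98% (RNA), 99% (Ribo-seq) and 86% (TE) were recovered. These counts had a single dispersion of 0.05 and no library against its label. The shares check the code and do not measure the power of the fits on the real libraries. Names come from the study's supplemental lists (2634 transcripts). All 10 genes are named, with the lowest and highest RNA change of each other list; further genes of those lists were picked after their values were seen. Members and lists were chosen with earlier results of these data known, and these are described without a test. Deviations from the group means of same-numbered libraries correlated with r of -0.36, -0.20 and -0.01 in RNA-seq and of -0.63, 0.75 and 0.70 in Ribo-seq, so not every pair exceeded 0.1 and replicate numbers were not taken to pair samples. Readings of the other lists and of ratios within a genotype without the 2 doubtful Ribo-seq libraries were added after seeing the data. Alternatives were TMM, library totals, DESeq2 1.42.0, other filters, blocks, logistic regression and leaving out libraries.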

Additional observations from a re-analysis of the deposited data

How the results depend on the processing

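The direction of the RNA and TE changes of the 10 genes held under every alternative tried, and the Ribo-seq direction did not. Leaving out 1 lymphoma at a time gave median log2 changes of -2.04 to -1.71 in RNA, -0.21 to 0.07 in Ribo-seq and 1.61 to 2.04 in TE, with 9 to 10, 0 and 0 to 7 of the 10 genes called, and 2724 to 5345, 0 and 0 to 174 transcripts called. With library totals the RNA median was -1.56, and 3 genes and 20 transcripts were called in TE. Transcripts called in TE, 197 in all, became 620 with DESeq2, 119 with no filter, 106 with scaling over all 12 libraries, 42 (4 of the genes) with the lymphoma as a block, 5038 with the logistic regression (counting error alone) and 326 without the 2 Ribo-seq libraries. Leaving out those libraries gave 3248 transcripts and 4 of the genes in Ribo-seq. With the replicate block 3992, 0 and 265 transcripts were called in RNA, Ribo-seq and TE, with medians of -1.87, -0.04 and 1.80 for the genes, and since not every same-numbered pair deviates together nothing is read from it. Without ribosomal protein transcripts the 10 genes took 4.29% of RNA counts in Eμ-Myc/+ lymphomas. The looser TOP rule held for 4 genes in the 5′ UTR table and for 2 at RefSeq starts. The causes of these shifts were not tested. With 3 lymphomas per genotype, the standard errors of the 10 genes in Ribo-seq were 0.16 to 0.23. A call needs a change of several standard errors, so changes somewhat above these errors could be missed as well.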
